A study of Oryza sativa with 6 samples.

Results

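The regions described here carry acetylation of histone H3 at lysine 9 (H3K9ac) in the first 3 Mb of rice chromosome 11 and in the first 3 Mb of chromosome 12. Overlapping peaks of the 6 libraries were merged, with 1 bp of overlap enough, and a merged region was taken when its midpoint lay within either stretch. This gave 366 of the 17468 merged regions on the 12 nuclear chromosomes, 182 at the chromosome 11 end and 184 at the chromosome 12 end. At the 3 Mb limit, the last region inside was chromosome 11 from 2971354 to 2972451, called in 6 libraries, and the first outside began at 3020878 and was called in 1. On chromosome 12 the last inside, from 2993778 to 2994196, was called in 1 library and the first outside, from 3023853 to 3024726, in 5. Coordinates refer to rice build IRGSP-1.0.

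These chromosome ends are the most recent large segmental duplication known in the rice genome. Both hold related genes in largely the same order, and gene conversion between them has kept parts of their sequence alike. H3K9ac is laid down by histone acetyltransferases and is found mainly at the starts of active genes, so a duplicated stretch allows the mark to be compared between copies of the same ancestral DNA. Caterpillar feeding on rice leaves is known to induce defence genes through the jasmonate pathway.

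The mark was mapped by CUT&Tag, which uses an antibody to bring a transposase to the mark, on leaf nuclei of Oryza sativa seedlings per the sample labels, while the series design speaks of whole seedlings. All plants were 20 days old and the labels give no cultivar or genotype for any group. The groups were plants infested with the caterpillar Spodoptera frugiperda (fall armyworm) for 3 h, plants infested for 12 h, and uninfested controls, with 2 libraries each. Nothing in the labels says whether the replicates came from separate plants, so a p-value here reflects library-to-library spread that may be technical.

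The infested lists were longer than the control lists over the whole genome, which bears on every count below. They held 10172 and 11926 nuclear regions at 3 h and 11015 and 10861 at 12 h, against 4559 and 5074 in control. Median summit coverage at the members lay between 13 and 16 fragments per library, which limits the precision of each value. A missing call means that the peak threshold was not reached, and does not show that acetylation was absent.

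Near the tips, a block of 5 regions lay in the same order and at almost the same spacing in both copies. On chromosome 11 it ran from 78907 to 124628 and on chromosome 12 from 74961 to 120420. Summits on chromosome 12 stood 4016 to 4336 bp closer to the tip than their partners. The gaps between neighbouring summits were 2373, 26051, 2706 and 13680 bp on chromosome 11 and 2502.5, 25921.5, 2515.5 and 13706 bp on chromosome 12. No other region lay in the chromosome 11 block, and 1 lay in the chromosome 12 block, from 96681 to 97003, called in 3 h replicate 2 alone.

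The calls in this block were alike in both copies. Of 30 comparisons (5 pairs in 6 libraries), 25 gave the same call in both copies, or 83.3%. The block was chosen after its values were seen, and no test was made of it. How reads that match both copies were placed is not given in the sources used here, and the part of such reads in the likeness was not tested.

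The first pair of the block was called in all 6 libraries in both copies. Here and below, a value is the authors' fold enrichment, the summit's height relative to background. Whether that background came from the same library or from an input is not given in the sources used here. On chromosome 11, from 78907 to 79820, the fold was 3.84 and 5.13 at 3 h, 4.02 and 4.94 at 12 h, against 4.60 and 3.97 in control. On chromosome 12, from 74961 to 75649, it was 4.48 and 3.02 at 3 h, 4.42 and 4.12 at 12 h, against 4.90 and 4.49 in control. The groups overlapped on chromosome 11. On chromosome 12 every infested value lay below both control values, narrowly so in 3 h replicate 1 (4.480, against 4.487 in control replicate 2).

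The second pair was called in both control libraries in both copies and in neither 3 h library. On chromosome 11, from 81533 to 82281, no infested library called it, and the control folds were 3.84 and 4.39. On chromosome 12, from 77392 to 78357, 12 h replicate 2 called it with a fold of 4.43, and the control folds were 4.44 and 3.62. Such a loss at 3 h was rare. Of all nuclear regions, 0.538% were called in both control libraries and neither 3 h library. Of the members 3 were, or 0.82%, 2 of them this pair.

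The third pair was again called in all 6 libraries in both copies and was the strongest of the block. From 107504 to 108460 on chromosome 11, the fold was 5.77 and 7.41 at 3 h, 5.91 and 6.78 at 12 h, against 4.88 and 5.41 in control, so every infested value exceeded both control values. From 103311 to 104130 on chromosome 12, it was 5.03 and 5.21 at 3 h, 5.50 and 4.23 at 12 h, against 6.38 and 4.21 in control, and the groups overlapped. The chromosome 11 region had the highest mean fold, 6.03, of the 26 members of that end called in all libraries.

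The fourth pair was called in the same 3 libraries in both copies, 3 h replicate 1 and both 12 h replicates. On chromosome 11, from 110367 to 111016, the 3 h fold was 3.93 and the 12 h folds were 2.87 and 3.31. On chromosome 12, from 105833 to 106665, the 3 h fold was 3.21 and the 12 h folds were 3.41 and 3.47. Both copies thus counted as gained at 12 h, the term used for a region called in both libraries of the infested group and in neither control.

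The fifth pair was the one in which the copies parted. On chromosome 11, from 123502 to 124628, the calls came from 3 h replicate 2 (3.07), 12 h replicate 2 (4.55) and control replicate 1 (3.91). On chromosome 12, from 119531 to 120420, they came from 3 h replicate 1 (3.23) and both 12 h replicates (3.89 and 3.85). Both members were called in 3 libraries and shared only 12 h replicate 2.

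**Figure D1:**
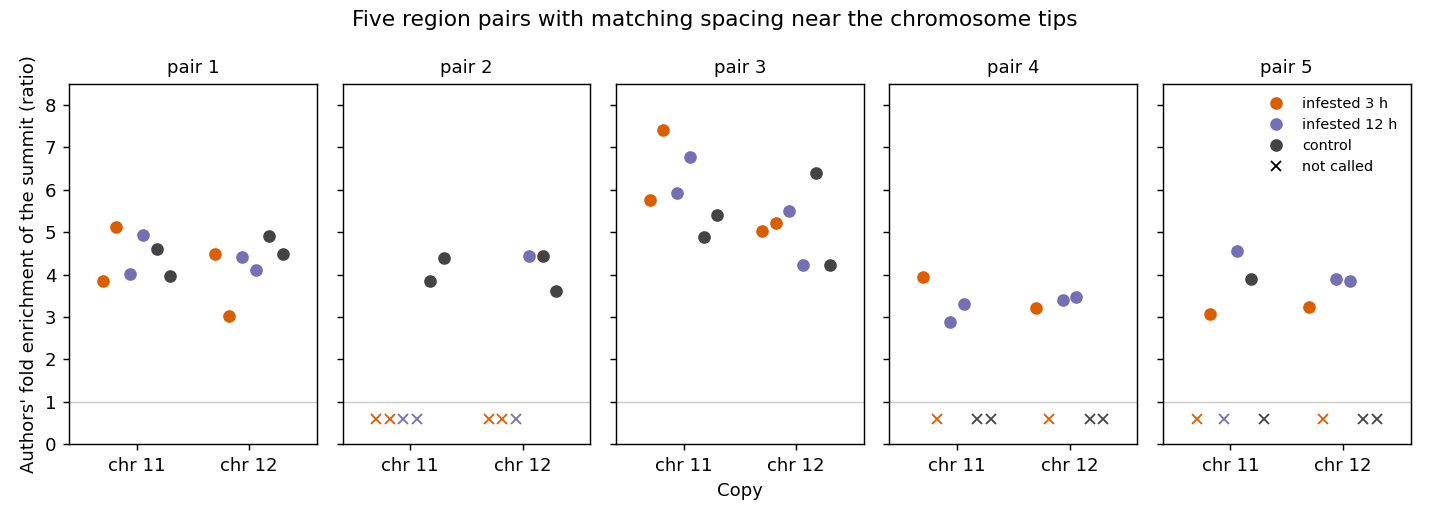
Authors' fold enrichment of the summit (vertical axis, ratio) for the 5 region pairs of the block near the tips, with chromosome 11 left and chromosome 12 right in each panel. Each point is 1 library, coloured by group, and crosses under the line at 1 mark libraries that did not call the region. Pairs 1 and 3 were called throughout, pair 2 lacked all 3 h calls, and pair 4 had the same 3 calls in both copies.

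Closer to the tips than this block, chromosome 11 held 2 regions and chromosome 12 held 1. Chromosome 11 began with a region from 2339 to 2677, called in 3 h replicate 1 alone with a fold of 3.41. It was followed by one from 3361 to 4850 with folds of 4.26 and 3.76 at 3 h, 5.10 in 12 h replicate 2, against 4.08 and 4.72 in control. Chromosome 12 began with a region from 1597 to 3175 with folds of 4.73 and 5.43 at 3 h, 7.68 and 4.53 at 12 h, against 3.66 in control replicate 2. It spanned the place of the first chromosome 11 region. Like the second one, though, it was called in 5 libraries, and their widths were 1579 and 1490 bp. Which of them is its partner could not be told without an alignment. A long gap came next in both copies, 75.5 kb on chromosome 11, the widest of that end, and 72.9 kb on chromosome 12.

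Runs of equal spacing as long as those between the duplicated ends were also found between other chromosomes. A run was defined as members in the same order whose summit offset between copies changed by at most 300 bp from one to the next, with gaps of up to 80 kb and an offset of up to 100 kb. Among members called in 3 or more libraries, the longest run between both ends was 4 pairs, all within the block. Of the 65 other pairs of chromosome starts, 4 held a run of at least 4, in which 70.0 to 79.2% of calls were the same, against 83.3% in the run between the ends. That run had 20 of 24 calls the same, and those between chromosomes 5 and 10 and between 7 and 8 had 19 of 24. With every member included, the longest run was 6 pairs, and 7 of the 65 other pairs of chromosomes had one as long. Without a genome sequence the copies could not be aligned here, so a region that has moved by an insertion or deletion could not be matched to its partner.

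Regions at the same distance from the tip rarely coincided. With that distance carried over unchanged, 11 pairs of members overlapped, involving 5.49% of chromosome 11 members and 5.98% of chromosome 12 members. None of the pairs of the block near the tips was among them, as their summits stood 4016 to 4336 bp apart in distance from the tip. Such overlap could not match shifted partners, so these pairs do not show whether the copies of a region differ. The median over the other pairs of chromosome starts was 14 overlapping pairs, and 46 of 65 had at least 11. Only 1 of the 11 pairs had the same calls in all libraries, chromosome 11 from 1359541 to 1360377 and chromosome 12 from 1359699 to 1360070, both called in 12 h replicate 2 alone. In 2 pairs one member was called in 6 libraries and the other in 1. In the first, the chromosome 11 region from 824142 to 825594 was called in 6 libraries with folds of 3.89 to 5.11. The overlapping chromosome 12 region, from 825200 to 825544, was called in 12 h replicate 1 alone with a fold of 2.86. In the second, the last region of the chromosome 11 end overlapped the chromosome 12 region from 2971281 to 2971774, called in control replicate 2 alone with a fold of 3.59.

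In the number of merged regions per window the copies were alike in the first 1 Mb and not beyond it. In the first 10 windows of 100 kb, chromosome 11 held 4, 10, 10, 5, 7, 6, 8, 12, 5 and 5 regions and chromosome 12 held 4, 7, 9, 7, 7, 7, 8, 14, 8 and 5. Both peaked in the eighth window. The counts differed by 1.20 regions per window on average, against a median of 3.40 over the 65 other pairs of chromosome starts, of which 1 was as low. Pearson's r over these 10 windows was 0.80 and Spearman's rho 0.73, and 1 other pair of chromosomes had an r as high. By library, Pearson's r ranged between 0.15 and 0.94. Over the next 20 windows r was −0.34 and the mean difference 3.60 regions, with the nineteenth window holding 13 regions on chromosome 11 and 1 on chromosome 12. The windows share the libraries they come from, the division at 1 Mb was chosen after the counts were seen, and no p is given.

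**Figure D2:**
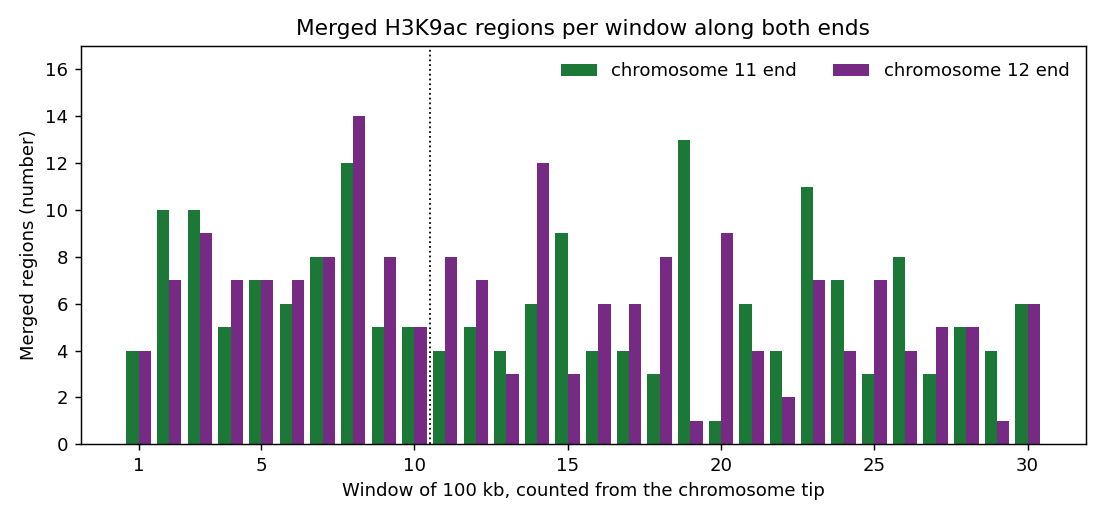
Number of merged regions (vertical axis) in each window of 100 kb counted from the chromosome tip (horizontal axis), with chromosome 11 left and chromosome 12 right in each window. The dotted line marks 1 Mb. Bars of both copies are of like height left of the line, and differ by up to 12 regions right of it.

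Members were spaced alike in both copies taken whole. The median gap between neighbouring summits was 10.0 kb at the chromosome 11 end and 10.8 kb at the chromosome 12 end, against 11.5 kb in the first 3 Mb of the other 10 chromosomes. Taken singly, the starts of chromosomes 1, 3, 5, 6 and 8 had medians of 9893.5 to 10856 bp, so such spacing was not particular to the duplicated ends. The starts of chromosomes 2, 4, 7, 9 and 10 had medians of 11618 to 20415.5 bp. The lower and upper quartiles of the gaps were 6500.5 and 20514 bp on chromosome 11 and 6285.5 and 21701.5 bp on chromosome 12. The widest gap on chromosome 12, 97.2 kb, followed the region from 1810547 to 1811561, which was called in all 6 libraries. Gaps over 50 kb made up 5.22% of the gaps at both ends, against 7.40% in the first 3 Mb of the other 10 chromosomes and 17.5% in the rest of chromosomes 11 and 12. No test was made of the gaps.

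The number of called regions did not pass the test between the copies. The chromosome 11 end had 94 and 114 called regions at 3 h, 113 and 112 at 12 h, against 45 and 52 in control. The chromosome 12 end had 101 and 112 at 3 h, 103 and 102 at 12 h, against 48 and 55 in control. Chromosome 11 was lower in 3 h replicate 1 and in both controls and higher in the other 3 libraries. The difference averaged 1.5 regions per library ± 7.18 (SD, n = 6; exact permutation test by sign flips, two-sided p = 0.719, adjusted p = 0.791 over 11 tests).

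**Figure D3:**
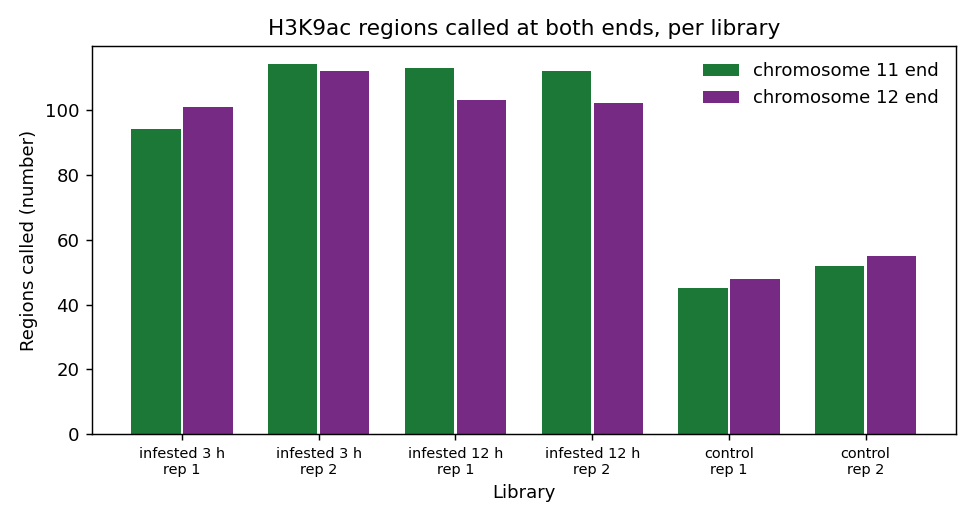
Number of regions called (vertical axis) at the chromosome 11 end and the chromosome 12 end in each library (horizontal axis). The 4 infested libraries hold 94 to 114 regions per end and the controls 45 to 55, and the copies stand at like heights in each library.

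Neither strength nor width passed the test between the copies. The median fold of called regions at the chromosome 11 end was 3.78 and 3.74 at 3 h, 4.02 and 3.90 at 12 h, against 3.47 and 3.75 in control. At the chromosome 12 end it was 3.84 and 3.62 at 3 h, 3.89 and 4.17 at 12 h, against 3.72 and 3.50 in control. The difference was −0.017 on average ± 0.216 (SD, n = 6; exact permutation p = 0.875, adjusted p = 0.875). Called regions were wider on chromosome 11 in 5 of 6 libraries, by 30.2 bp ± 29.2 (SD, n = 6), which did not pass (exact permutation p = 0.0625, adjusted p = 0.172). With −log10 q of at least 5 alone the difference was −0.168 in fold (exact permutation p = 0.125) and 62.5 bp in width (exact permutation p = 0.156). With lists of equal length it was −0.078 in fold (exact permutation p = 0.406).

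Several strong members were called in all libraries and overlapped nothing at the same distance in the other copy. On chromosome 11 the region from 1886802 to 1887895 showed a fold of 5.24 and 6.69 at 3 h, 4.91 and 6.03 at 12 h, against 5.63 and 6.87 in control. The one from 1324457 to 1325446 had 6.96 and 5.16 at 3 h, 6.33 and 6.57 at 12 h, against 4.61 and 4.10 in control, with every infested value above both controls. On chromosome 12 the region from 1368802 to 1369596 had 5.18 and 5.67 at 3 h, 7.68 and 7.60 at 12 h, against 5.57 and 5.11 in control, and the 12 h values stood apart. From 515340 to 516882 the folds were 7.05 and 5.73 at 3 h, 5.65 and 6.32 at 12 h, against 4.86 and 4.70 in control. From 751931 to 752826 they were 4.68 and 5.13 at 3 h, 6.69 and 7.96 at 12 h, against 3.79 and 5.16 in control. The highest fold of any member was 8.02, on chromosome 12, and 7.41 on chromosome 11. Of the other 10 chromosome starts, chromosomes 2, 4, 6, 7, 8 and 10 reached higher than 8.02, up to 17.5 on chromosome 6.

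The ends shared in the general lengthening of the infested lists and did not exceed it. They held 1.92 and 1.90% of the nuclear regions of the 3 h lists, 1.96 and 1.97% of the 12 h lists, and 2.04 and 2.11% of the control lists. Every infested share lay below both control shares, with a mean difference of −0.139 percentage points, which did not pass (exact permutation test, 4 libraries against 2, two-sided p = 0.133, the smallest that design allows; adjusted p = 0.293). The difference from control was −0.168 points at 3 h and −0.109 points at 12 h, and the 12 h share was 0.060 points above the 3 h share. With lists of equal length the difference from control was −0.415 points over all infested libraries (exact permutation p = 0.133), −0.400 at 3 h and −0.430 at 12 h, and with −log10 q of at least 5 it was −0.041, −0.059 and −0.023. With the lists as deposited, each of the 3 comparisons by time gave an exact permutation p of 0.3333, the smallest possible with 2 libraries against 2 (adjusted p = 0.458).

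Members gained at 3 h were 31 on chromosome 11 and 24 on chromosome 12, which is 17.03% and 13.04% of the members of each end, against 19.4% of all nuclear regions. Members gained at 12 h were 42 and 28, or 23.1% and 15.2%, against 21.1% of all nuclear regions. The starts of the other 10 chromosomes had 9.78 to 23.5% of their regions gained at 12 h, so both ends lay within that range. At both times 16 regions were gained on chromosome 11 and 10 on chromosome 12, or 8.79% and 5.43%, against 11.8% of all nuclear regions. Both times share the control libraries. Members called in both 12 h libraries and in neither 3 h library were 11 on chromosome 11 and 8 on chromosome 12. These were 6.04% and 4.35% of the members of each end, against 3.89% of all nuclear regions. The reverse held for 6 and 9, or 3.30% and 4.89%, against 3.8% of all nuclear regions.

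With every list shortened to the strongest 5150 peaks, the length of the shortest, 5 of 197 members were gained at 3 h and 7 at 12 h, or 2.54% and 3.55%, against 5.55% and 7.30% of all nuclear regions. The count of gains thus depended on the length of the lists. Leaving out an infested replicate loosened the definition, since a gain at that time then needed a call in the remaining library alone. Without 3 h replicate 1 or 2, gains at 3 h numbered 119 and 97, or 34% and 29.0% of the members, against 39.5% and 31.8% of all nuclear regions. Without 12 h replicate 1 or 2, gains at 12 h numbered 118 and 125, or 35.2% and 35.9%, against 35.9% and 36.3% of all nuclear regions.

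**Figure D4:**
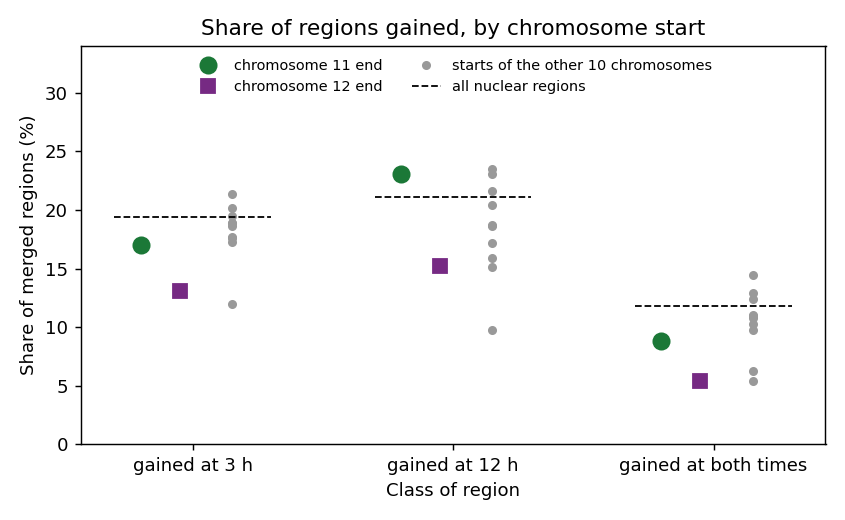
Share of merged regions (vertical axis, %) gained at each time and at both, for the chromosome 11 end, the chromosome 12 end and each start of the other 10 chromosomes. The dashed lines mark the share of all nuclear regions, 19.4%, 21.1% and 11.8%. The chromosome 12 end lies below the dashed line in all 3 classes, and the chromosome 11 end lies above it at 12 h alone.

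Among members gained at both times, the strongest on chromosome 11 was the region from 227198 to 228024, which had 6.33 and 5.79 at 3 h and reached 5.92 and 7.37 at 12 h. It was followed by 2738018 to 2739382 (3.84 and 6.16 at 3 h, 5.60 and 5.95 at 12 h) and 2390779 to 2392304 (4.05 and 5.65 at 3 h, 3.89 and 5.01 at 12 h). The region from 446958 to 447952 had 3.85 and 4.88 at 3 h and 5.24 and 3.20 at 12 h. On chromosome 12 the strongest was 1796503 to 1797486, with 3.55 and 4.94 at 3 h and 4.91 and 5.29 at 12 h. A neighbouring couple followed, 2468034 to 2469615 (4.11 and 4.08 at 3 h, 4.46 and 5.75 at 12 h) and 2460775 to 2461348 (3.88 and 4.30 at 3 h, 3.54 and 5.08 at 12 h). The region from 290444 to 291963 had 3.93 and 3.32 at 3 h and 3.81 and 4.96 at 12 h. Of these 8 regions, the one from 227198 had the highest value in 3 of the 4 infested libraries.

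Losses were fewer than gains at both ends with the lists as deposited, but not with lists of equal length. At 3 h, 2 members were lost on chromosome 11 and 1 on chromosome 12, or 0.82% of the members, against 0.538% of all nuclear regions. At 12 h 3 and 0 were lost, or 0.82%, against 1.13% of all nuclear regions. The 1 member lost at both times was the chromosome 11 region of the second pair, and 0.263% of all nuclear regions were lost at both. Besides that pair, the region of chromosome 11 from 2500690 to 2501410 was missing at 3 h, with folds of 4.32 and 4.43 at 12 h, against 3.36 and 3.73 in control. Chromosome 11 from 1390887 to 1391898 was missing at 12 h, with 2.82 in both 3 h libraries and 3.39 and 3.50 in control. The fifth, from 886685 to 887539, was also missing at 12 h, with 3.14 and 3.32 at 3 h and 2.61 and 3.43 in control. All 5 lost members had folds under 4.50 wherever they were called. With lists of equal length, 12 of 197 members were lost at 3 h and 15 at 12 h, or 6.09% and 7.61%, against 5.73% and 6.90% of all nuclear regions. Without control replicate 1 or 2, a loss needed a call in the remaining control library alone. So defined, 11 and 13 members were lost at 3 h, or 3.09% and 3.61%, against 2.55% and 2.54% of all nuclear regions. At 12 h 20 and 17 were lost, or 5.62% and 4.72%, against 3.46% and 3.58% of all nuclear regions.

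Set against the first 3 Mb of the other 10 chromosomes, pooled, the ends held more called regions per Mb but fewer strong ones. They had 32.5 and 37.7 regions per Mb at 3 h, 36.0 and 35.7 at 12 h, against 15.5 and 17.8 in control. The other starts had 30.3 and 35.9 at 3 h, 32.3 and 32.3 at 12 h, against 15.2 and 16.7 in control. The ends were denser in 6 of 6 libraries, by 2.09 regions per Mb ± 1.29 (SD, n = 6; exact permutation p = 0.0312, the smallest that 6 sign flips allow; adjusted p = 0.115 over 11 tests), so the difference failed the correction. By merged regions the ends stood in the middle of the 12 starts, with 182 and 184. Chromosomes 1, 2, 3, 5 and 6 held 185 to 209 and the other 5 held 85 to 148, so 5 of the other 10 starts held more regions than either end. With peaks of −log10 q of at least 5 alone the direction reversed. The ends then had 11.7 and 13 regions per Mb at 3 h, 12 and 13 at 12 h, and 4.67 in both controls. They were sparser in 6 of 6 libraries, with a mean difference of −0.867 (exact permutation p = 0.0312). With lists of equal length the difference was −0.378 (exact permutation p = 0.438). The median fold of called regions differed from that of the other starts by −0.025 ± 0.084 (SD, n = 6; exact permutation p = 0.688, adjusted p = 0.791).

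**Figure D5:**
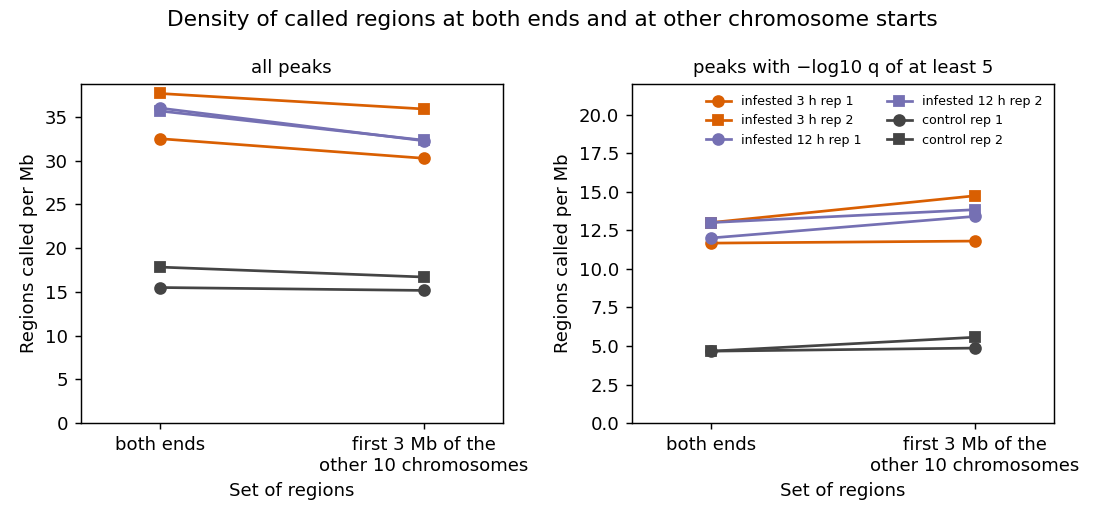
Regions called per Mb (vertical axis) at both ends and in the first 3 Mb of the other 10 chromosomes, 1 line per library, for all peaks (left) and for peaks with −log10 q of at least 5 (right). Every line falls to the right with all peaks and climbs with the stronger peaks.

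Regions at the ends had several summits less often, and were less often called by both libraries of a group, in every library, but neither difference passed the correction. These 2 measures were added after the data were seen. Regions with 2 or more summits made up 9.74 and 12.4% of called members at 3 h, 7.87 and 7.48% at 12 h, against 6.45 and 8.41% in control. In the other starts the shares were 14.8 and 17.5% at 3 h, 13.8 and 13.1% at 12 h, against 11.9 and 10.2% in control. The share was lower at the ends in 6 of 6 libraries, with a mean difference of −4.81 percentage points (exact permutation p = 0.0312, adjusted p = 0.115). Over merged regions, 13.2% of chromosome 11 members and 13.04% of chromosome 12 members had several summits in some library, against 17.4 to 25.9% in the other 10 starts. With peaks of −log10 q of at least 5 alone the difference was −1.84 points (exact permutation p = 0.438), and −2.01 with lists of equal length (exact permutation p = 0.0938).

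Of the members called in one library of a group, the other library also called 75.4 and 65.0% at 3 h, 72.7 and 73.4% at 12 h, against 68.8 and 59.8% in control. In the other starts it called 82.7 and 69.7% at 3 h, 76.4 and 76.3% at 12 h, against 75.8 and 68.9% in control. In the rest of chromosomes 11 and 12 it called 82.7 and 70.0% at 3 h and 75.9 and 77.3% at 12 h. The control values there, 67.8 and 60.7%, were close to those of the ends. The share was lower at the ends than in the other starts in 6 of 6 libraries, with a mean difference of −5.79 percentage points (exact permutation p = 0.0312, adjusted p = 0.115). Both libraries of a group enter each other's share, so these 6 values are not independent. The copies were not alike in this share. Its mean over libraries was 72.0% at the chromosome 11 end and 66.5% at the chromosome 12 end, against 72.6 to 79.0% in the other 10 starts. The chromosome 11 end thus lay close to the lowest of these. In control it was 75.6 and 65.4% on chromosome 11 and 62.5 and 54.5% on chromosome 12. Beside this, 26.2 to 36.4% of calls at the ends and 32.1 to 42.8% at the other starts reached a −log10 q of 5. With −log10 q of at least 5 alone the difference was −7.30 points, and with lists of equal length −9.28 points (exact permutation p = 0.0625 for each). Members called in all 6 libraries were 26 on chromosome 11 and 25 on chromosome 12, or 13.9% of the members, against 15.2% of all nuclear regions. Those called in 1 library were 58 and 64, or 33.3%, against 30% of all nuclear regions.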

How the data were processed

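The submitters' processing notes name MACS2 2.1.0, Bowtie 1.1.2, Trimmomatic 0.33 and bcl2fastq 2.17, and build IRGSP-1.0. Not given in the sources used here were tool settings, any input control, and how duplicate reads or reads matching several places were treated. The authors deposited 1 peak list per library, not pooled, with the fold of each summit (a ratio), its −log10 p, its −log10 q and a whole-number score that was not used. The smallest −log10 q in a list was 1.30.

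Peaks listed once per summit were joined, and each region took its highest fold per library. Summit coverage was recovered as whole fragments from the deposited fold and −log10 p for 100% of peaks (tolerance 0.001). Library values went into two-sided exact permutation tests with Benjamini-Hochberg adjustment over 11 tests, in Python 3.11.15 with numpy 2.4.6 and pandas 2.3.3. Differences between sets of regions were sign-flipped over libraries, and differences between groups permuted over library labels. Merging, calls, coverage recovery and tests were checked on simulated data. The members and measures were chosen with earlier results of these data known. Copies were to be aligned through a genome or gene pairs. The gene table at hand is on another assembly, so distance from the tip was used, no gene is named and no sequence is shown.

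Regions were named by rule: pairs at the same distance with the highest fold or most unequal calls, the strongest members gained at both times, lost members, first and last members, the widest gaps, and strong members without a counterpart. The block near the tips was chosen after its values were seen. Alternatives were a stricter q, equal list lengths, ends of 2 Mb, a 100 bp overlap, a 1 kb allowance for counterparts, leaving out each library, and the replicate number as a block.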

Additional observations from a re-analysis of the deposited data

Results flagged for a closer look

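The difference between the copies had one sign in both 12 h libraries and the other sign in both controls. The chromosome 11 end had 10 and 10 more called regions than the chromosome 12 end at 12 h, and 3 fewer in each control library, a difference of 13 regions between the groups. On a log2 scale the ratio of the chromosome 11 end to the chromosome 12 end averaged 0.13 at 12 h and −0.09 in control, and permuting the library labels gave p = 0.3333 (exact test, the lowest value 2 libraries against 2 can reach). By megabase from the tip, chromosome 11 had 40 and 43, 35 and 34, and 38 and 35 called regions at 12 h, and chromosome 12 had 39 and 45, 33 and 31, and 31 and 26. In control, chromosome 11 had 20 and 25, 10 and 13, and 15 and 14, and chromosome 12 had 24 and 23, 12 and 18, and 12 and 14. The excess at 12 h was thus widest in the third megabase in both libraries. The deficit in control was widest in the first megabase in replicate 1 and in the second megabase in replicate 2. With lists of equal length chromosome 11 had 39 and 36 at 12 h and chromosome 12 had 34 and 44, so the shared sign at 12 h was gone.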

How the results depend on the processing

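The 2 measures of shape and repeat calling, with all their settings, were added after the data were seen, and the others were planned. With −log10 q of at least 5, density against other starts was −0.867 regions per Mb and median fold against them 0.067, both reversed; gains were 21 at 3 h and 23 at 12 h of 149 members (14.1% and 15.4%, against 18.2% and 19.3% of all nuclear regions), and no member had a counterpart (0, and 0 pairs with the same calls). With lists of equal length, density was −0.378, median fold against other starts 0.059 and the 12 h share minus the 3 h share −0.031 points, all reversed; gains were 5 and 7, members with a counterpart 2 and pairs with the same calls 0. With ends of 2 Mb, chromosome 11 minus chromosome 12 was −2.83 regions and 0.056 in median fold, both reversed. At 3 h 35 of 264 members were then gained, or 13.3%, against 19.4% of all nuclear regions. A 1 kb allowance gave 72 members with a counterpart, against 21, and 2 pairs with the same calls, against 1. A counterpart here is an overlap at the same distance from the tip, which cannot match shifted partners such as those of the block. Merging at 100 bp kept every direction and side of the threshold.

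Leaving out 1 library at a time, the difference between copies ranged between −0.40 and 3.20 regions (−0.20 and −0.40 without 12 h replicates 1 and 2) and between −0.064 and 0.036 in median fold (0.030 without control replicate 1, 0.036 without 12 h replicate 2). Density against other starts ranged between 1.68 and 2.43, and no p could go below 0.0625 with 5 libraries. Median fold against other starts ranged between −0.043 and 0.0051, positive only without control replicate 2. For gains, a group with a library left out was judged by its remaining library alone, a looser definition than with both. Gains at 3 h ranged between 54 and 119, or 15.5% and 34% of the members, against 20.5% and 39.5% of all nuclear regions. Gains at 12 h ranged between 69 and 125, or 20.6% and 35.9%, against 23.0% and 36.3% of all nuclear regions. Pairs with the same calls ranged between 0 and 3. Members with a counterpart ranged between 15 and 19.

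With the replicate number as a block no p could go below 0.5, and density stayed at 2.09 regions per Mb (exact permutation p = 0.5). At 2657 regions called in all lists, differences between replicates correlated across groups with r of −0.010, −0.034 and 0.0057. These values gave no sign of pairing by replicate number, but at this depth they cannot show that libraries were unpaired.

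Except where a setting itself shortens the lists or removes a library, the cause of a change was not tested. Depth limits single regions, with 9 to 30 fragments at the summits of the block near the tips.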
